A study of Homo sapiens with 9 samples.

Results

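The genes described here encode the SR proteins, the TRA2 proteins, the CLK kinases and the heterogeneous nuclear ribonucleoproteins (hnRNPs), the classical regulators of pre-mRNA splicing. They were chosen by symbol, with earlier results of these data known. The rule took SRSF followed by digits, HNRNP at the start (without a hyphen and not ending in P and digits, which marks pseudogenes), CLK1 to CLK4, TRA2A and TRA2B. The rule gave 43 of the 60591 symbols in the count table, which were 12 SR proteins, 2 TRA2 proteins, 4 CLK kinases and 25 hnRNPs. Of these, 39 passed the filter on low counts and were tested among 15944 genes. The other 4, HNRNPCL1, HNRNPCL2, HNRNPCL3 and HNRNPCL4, had between 0 and 3 counts in each of the 9 libraries and received no fold change.

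Messenger RNA was sequenced from undifferentiated Caco-2 (uCaco-2) cells, a proliferating human colon adenocarcinoma line that serves as a model of intestinal epithelium. The 3 groups, of 3 libraries each, were compared after 24 h: control cells in fresh medium, cells with 300 μM cobalt (II) chloride (CoCl2) and cells with 5 μM of an oxyquinoline derivative (OD). All 3 groups, control included, contained 0.5% DMSO, the solvent of the OD stock. The study used both agents as chemical activators of the hypoxia-inducible factor (HIF) pathway, and no library came from cells at low oxygen. The study's methods call the 3 libraries of a condition biological replicates, and the p-values set differences between conditions against the spread between such libraries. Since 1 cell line was used, cells of other donors were not sampled.

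Library totals ran from 15998136 to 24209427 counts. The top 50 genes of a library made up 15.7 to 16.2% of its counts in control and OD and 21.7 to 22.3% with CoCl2, and the TMM factors that scale libraries to each other were 1.11 to 1.12 in control, 0.770 to 0.795 with CoCl2 and 1.14 to 1.15 with OD. Of 13 epithelial markers, 11, 11 and 12 had at least 10 counts in every control, CoCl2 and OD library, while CDX1 was at 0 in all of them. Their summed level in TMM-scaled CPM was 11274 to 11825 in control, 14644 to 15561 with CoCl2 and 10953 to 11503 with OD, and keratins made up most of it. Single markers moved with CoCl2 alongside the results below, among them VIL1 (villin, log2 fold change -2.45), KRT20 (-1.44) and CLDN4 (2.86). The summed level of 14 markers of leukocytes, endothelium, stroma, nerve and liver was 45.5 to 54.3 CPM in control, 82.5 to 89.2 CPM with CoCl2 and 50.5 to 53.7 CPM with OD on the same scale, and PTPRC, CD3E, CD68, COL1A2 and ACTA2 had 6 counts or fewer in every library. The neuronal tubulin TUBB3 carried much of the CoCl2 sum, at 42.0 ± 4.42 CPM (SD, n = 3) against 1.26 ± 0.180 CPM in control, and the part of other cells or of these marker changes in the results below was not tested.

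Splicing removes introns from pre-mRNA, and the choice of splice sites is set by proteins bound to exons and introns. SR proteins carry RNA recognition motifs and a domain rich in arginine and serine (RS domain), bind exonic enhancers and mostly favour inclusion of an exon, whereas many hnRNPs, the abundant packaging proteins of nuclear RNA, bind silencers and oppose it. CLK kinases phosphorylate the RS domain, which moves SR proteins out of nuclear speckles and sets their activity. Many genes of both families limit their own output by splicing part of their RNA into forms with an early stop codon, which nonsense-mediated decay (NMD) removes. Counts per gene, as deposited here, do not separate such forms from the coding messenger RNA.

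In the GENCODE 44 annotation, 31 of the 39 tested members (79.5%) had at least 1 transcript annotated as an NMD target, against 46.7% of 12740 tested protein-coding genes. A retained-intron transcript was annotated for 30 members (76.9%), against 60.3% of the tested protein-coding genes. The members also had more annotated transcripts, with a median of 13 against 8. HNRNPA1 had 84 annotated transcripts, while HNRNPA0, HNRNPH2 and HNRNPA1L2 had 1 each. These shares describe the annotation and were not measured in these libraries.

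The promoter windows of the 7 members that passed both the test and a log2 fold change beyond 1 in size with either agent are printed here, because the study used both agents to activate HIF. Each runs from 250 bases before to 50 bases after a transcription start (RefSeq, GRCh38.p14), taken at the start of the canonical transcript of each gene. Capitals mark ACGTG or GCGTG on either strand, the core letters of the hypoxia response element, where HIF can bind. The windows lie at chr2:200864609-200864908, minus strand (CLK1), chr15:74615586-74615885, plus strand (CLK3), chr5:179623622-179623921, minus strand (HNRNPH1), chrX:101407972-101408271, plus strand (HNRNPH2), chr17:58007197-58007496, minus strand (SRSF1), chr2:177212544-177212843, plus strand (HNRNPA3) and chr1:244864494-244864793, minus strand (HNRNPU). CLK1, CLK3, HNRNPH1 and HNRNPH2 were the members called higher with CoCl2.
CLK1: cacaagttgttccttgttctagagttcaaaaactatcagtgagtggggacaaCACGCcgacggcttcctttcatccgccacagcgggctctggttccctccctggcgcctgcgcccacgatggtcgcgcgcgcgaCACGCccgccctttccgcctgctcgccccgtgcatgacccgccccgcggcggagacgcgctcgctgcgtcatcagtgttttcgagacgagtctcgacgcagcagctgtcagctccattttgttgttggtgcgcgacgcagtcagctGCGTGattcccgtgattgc
CLK3: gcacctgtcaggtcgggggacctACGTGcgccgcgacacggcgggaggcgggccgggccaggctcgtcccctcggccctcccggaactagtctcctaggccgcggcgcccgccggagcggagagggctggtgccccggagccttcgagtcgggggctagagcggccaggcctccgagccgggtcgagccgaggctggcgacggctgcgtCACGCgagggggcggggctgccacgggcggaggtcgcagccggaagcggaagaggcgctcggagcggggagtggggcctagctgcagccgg
HNRNPH1: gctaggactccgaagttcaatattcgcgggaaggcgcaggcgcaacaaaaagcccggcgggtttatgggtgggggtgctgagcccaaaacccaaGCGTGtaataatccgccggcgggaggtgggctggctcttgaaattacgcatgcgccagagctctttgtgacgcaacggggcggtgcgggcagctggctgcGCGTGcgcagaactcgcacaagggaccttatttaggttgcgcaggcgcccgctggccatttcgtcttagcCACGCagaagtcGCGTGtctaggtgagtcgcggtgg
HNRNPH2: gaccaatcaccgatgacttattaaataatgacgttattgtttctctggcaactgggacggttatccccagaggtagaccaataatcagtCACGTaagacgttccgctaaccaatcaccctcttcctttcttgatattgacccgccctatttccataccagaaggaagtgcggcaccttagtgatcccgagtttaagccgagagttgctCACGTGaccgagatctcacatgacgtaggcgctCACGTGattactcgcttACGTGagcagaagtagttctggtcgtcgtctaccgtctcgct
SRSF1, HNRNPA3 and HNRNPU were the members called lower with OD.
SRSF1: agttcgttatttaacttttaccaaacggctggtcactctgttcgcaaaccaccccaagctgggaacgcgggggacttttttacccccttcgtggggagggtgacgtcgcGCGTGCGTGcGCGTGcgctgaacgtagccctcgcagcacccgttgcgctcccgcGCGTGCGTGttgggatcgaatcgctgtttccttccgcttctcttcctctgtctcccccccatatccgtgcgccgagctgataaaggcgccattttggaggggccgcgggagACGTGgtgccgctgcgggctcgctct
HNRNPA3: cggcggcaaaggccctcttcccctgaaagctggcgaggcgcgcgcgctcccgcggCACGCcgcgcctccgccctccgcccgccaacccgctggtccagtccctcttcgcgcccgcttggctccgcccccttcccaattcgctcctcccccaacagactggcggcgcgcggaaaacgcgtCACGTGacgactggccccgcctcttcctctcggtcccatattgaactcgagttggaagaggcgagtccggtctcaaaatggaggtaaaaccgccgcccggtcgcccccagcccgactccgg
HNRNPU: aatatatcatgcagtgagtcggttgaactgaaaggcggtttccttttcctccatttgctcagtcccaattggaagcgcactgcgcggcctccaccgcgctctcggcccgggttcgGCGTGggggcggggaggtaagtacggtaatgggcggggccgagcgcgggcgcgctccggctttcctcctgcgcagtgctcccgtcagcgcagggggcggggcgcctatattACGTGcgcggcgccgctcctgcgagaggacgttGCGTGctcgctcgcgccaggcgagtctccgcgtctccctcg

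All 7 windows held the HIF core letters, with 3 matches in CLK1, 2 in CLK3, 4 in HNRNPH1, 6 in HNRNPH2, 6 in SRSF1, 3 in HNRNPA3 and 3 in HNRNPU, so the letters occurred both in members that were called higher and in members that were called lower. In HNRNPH2, 2 stretches of CACGTG, which hold the core on both strands, gave 4 of the 6 matches. In HNRNPA3, 1 such stretch gave 2 of the 3 matches. RefSeq gave 2 windows for CLK1, 2 for CLK3 and 4 for HNRNPH1, and these counts are for the printed ones. Another HNRNPH1 window, chr5:179624551-179624850, held no match. RefSeq windows were matched for 39 of the 43 members (55 windows; none for HNRNPA1, HNRNPCL3, SRSF2 or TRA2A). Of the 55 windows 43 (78.2%) held a match, against 59.9% of the 15788 windows of tested genes and 48.4% of all 35116 windows of the table. The median GC content was 64.0% in the members' windows and 64.7% in those of tested genes. The letters GAANNTTC or TTCNNGAA, the core of the heat-shock element, were in 4 of the 55 windows (7.27%), against 10.6% of the windows of tested genes, and in none of the 7 printed. A match is a description of letters and not a binding site, and no binding was measured.

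Levels of the members in control cells spanned a wide range. Per kilobase of the canonical transcript, HNRNPA2B1, an hnRNP of the core RNA-packaging particle, was highest at 489 ± 12.4 CPM per kb (SD, n = 3). It was followed by HNRNPAB at 253 ± 3.79, HNRNPH1 at 241 ± 5.23, HNRNPA1 at 233 ± 12.1 and HNRNPK at 207 ± 0.710 CPM per kb. The libraries of HNRNPH1 and HNRNPA1 overlapped on this scale, while those of the other neighbours in this order did not. Among SR proteins, SRSF5 was highest at 166 ± 6.73 CPM per kb, followed by SRSF7 at 103 ± 1.84 and SRSF2 at 95.2 ± 1.57 CPM per kb. SRSF12 and HNRNPA1L2 were the lowest tested members, with 0.315 ± 0.153 and 1.58 ± 0.231 CPM per kb, and CLK4 was the lowest kinase at 8.96 ± 0.254 CPM per kb. With CoCl2, HNRNPH1 was the highest member at 683 ± 40.1 CPM per kb, above HNRNPA2B1 at 408 ± 12.1 CPM per kb.

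With CoCl2, the kinases CLK1 and CLK3 and the G-run binding hnRNPs HNRNPH1 and HNRNPH2 rose 2.59-fold to 5.85-fold, and most SR proteins and both TRA2 proteins rose by less. With OD, the SR proteins, TRA2 proteins and hnRNPs fell almost throughout, while CLK1, CLK3 and CLK4 rose. In numbers, 23 of the 39 tested members were higher with CoCl2 than in control at an adjusted p under 0.05 (edgeR, quasi-likelihood, Benjamini-Hochberg), against 40.4% of all genes tested, and 11 were lower, against 42.8% of all genes. The median log2 fold change was 0.25 over the members and -0.049 over all genes. Beyond a log2 fold change of 1, 4 members were called higher and 0 lower, against 19.9% and 23.4% of all genes. With OD, 3 members were higher and 33 lower, against 32.3% and 33.3% of all genes, and the median was -0.53 over the members and -0.010 over all genes. Beyond a log2 fold change of 1, 0 members were higher and 3 lower with OD, against 9.09% and 4.16% of all genes. The libraries of treatment and control did not overlap for 33 of 39 members with CoCl2 and for 36 of 39 with OD, against 83.4% and 68% of all genes.

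The directions with CoCl2 depended on the scaling between libraries. When counts were divided by the library total alone, the median of all genes moved from -0.049 to -0.55 and the median of the members from 0.25 to -0.26, with 10 members higher and 23 lower, and the share of higher genes among all called genes moved from 46.0% to 23.9%. Relative to the median of all genes, 27 of the 39 members lay above it under either scaling. CLK1, CLK3, CLK4, HNRNPH1, HNRNPH2, TRA2A, TRA2B, SRSF2, SRSF3, SRSF4, SRSF5, SRSF6 and SRSF11 kept values above control under both scalings, though SRSF4 (0.0031), TRA2A (0.027) and TRA2B (0.057) did not pass the test by library size alone. SRSF7, SRSF10, HNRNPA1, HNRNPAB, HNRNPC, HNRNPH3, HNRNPK, HNRNPL, HNRNPM and HNRNPUL2, which rose with TMM factors, had values below control by library size alone. The 11 members that fell with TMM factors were lower still by library size alone, from -0.61 for HNRNPF to -1.39 for SRSF12. With OD the median of all genes was 0.029 by library size alone, and 3 members lay above control and 36 below under both scalings.

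**Figure D1:**
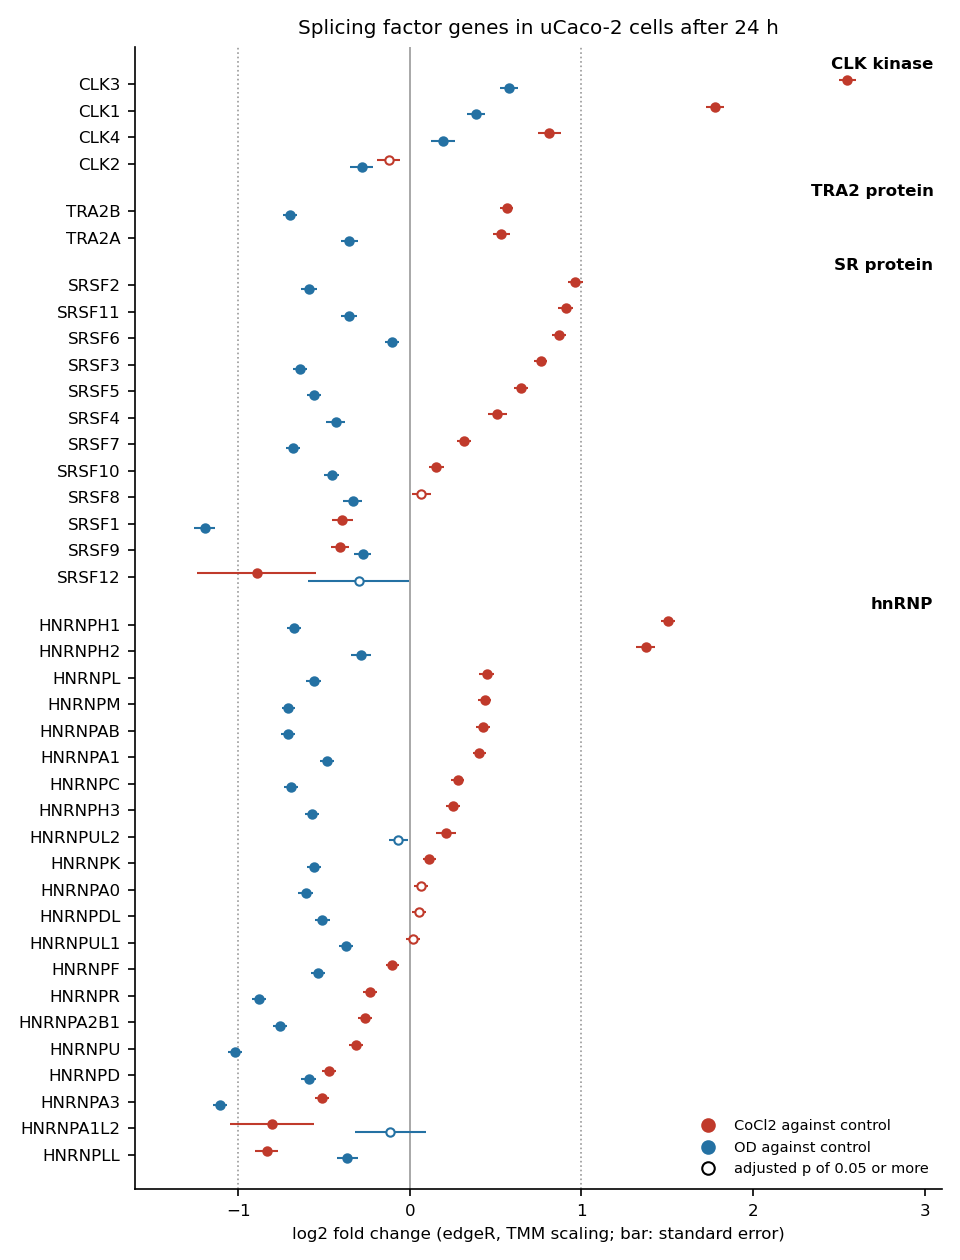
Log2 fold changes of the 39 tested members, with CoCl2 (red) and with OD (blue) against control, by edgeR with TMM scaling. Each row is a gene, bars are standard errors, open points have an adjusted p of 0.05 or more and dotted lines mark a log2 fold change of 1 in size. CLK3 and CLK1 lie farthest to the right with CoCl2, and 36 of the 39 OD points lie left of 0.

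**Figure D2:**
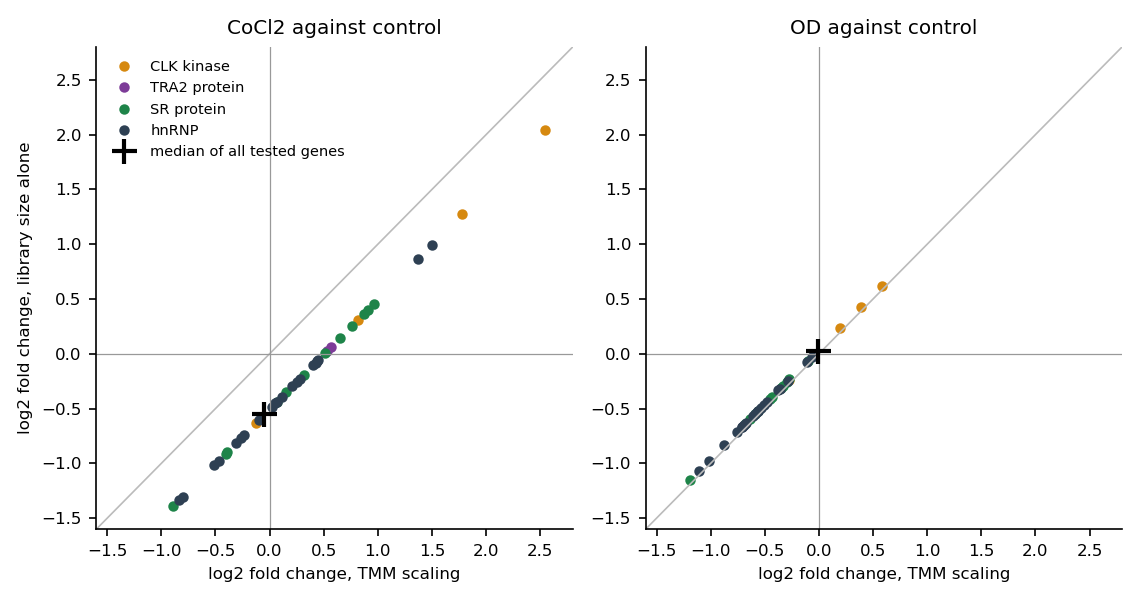
Log2 fold changes of the tested members with TMM scaling (horizontal axis) and with library size alone (vertical axis), for CoCl2 against control (left) and OD against control (right). Points are genes coloured by family, the cross is the median of all tested genes and the grey diagonal marks equal values. With CoCl2 all points lie below the diagonal and 14 members change sign, while with OD the points follow the diagonal.

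CLK3 showed the largest change of any member with CoCl2. It was measured at 48.4, 43.2 and 45.1 CPM in the control libraries, 277, 259 and 262 CPM in the CoCl2 libraries and 68.9, 65.1 and 70.2 CPM in the OD libraries, so the 3 groups did not overlap. It rose 5.85-fold with CoCl2 (log2 fold change 2.55, SE 0.050, adjusted p = 9.26e-50) and 1.49-fold with OD (log2 fold change 0.58, SE 0.052, adjusted p = 2.41e-15). CLK1, which phosphorylates SR proteins in the nucleus, was at 64.8, 66.8 and 65.3 CPM in the control libraries, 237, 232 and 208 CPM in the CoCl2 libraries and 78.6, 85.6 and 93.6 CPM in the OD libraries. Again every CoCl2 library lay above every OD library, and every OD library above every control library. CLK1 rose 3.43-fold with CoCl2 (log2 fold change 1.78, SE 0.052, adjusted p = 2.46e-36) and 1.31-fold with OD (log2 fold change 0.39, SE 0.054, adjusted p = 9.47e-09). CLK4, the close relative of CLK1, was at 22.9, 22.7 and 21.7 CPM in control, 38.4, 42.5 and 37.9 CPM with CoCl2 and 25.7, 25.03 and 26.3 CPM with OD. The groups kept the same order without overlap, and the log2 fold changes were 0.81 (SE 0.067, adjusted p = 1.68e-17) for CoCl2 and 0.19 (SE 0.068, adjusted p = 0.0109) for OD, where the test was missed without control replicate 3 (adjusted p = 0.0553). CLK2 behaved otherwise, at 31.1, 29.4 and 32.3 CPM in control, 28.5, 26.00 and 30.1 CPM with CoCl2 and 24.9, 24.8 and 26.7 CPM with OD. CLK2 did not pass the test with CoCl2, where the 95% interval of its log2 fold change was -0.26 to 0.010 (adjusted p = 0.0876), though it did with no filter (-0.19, adjusted p = 0.0185), with at least 10 counts in every library (-0.15, adjusted p = 0.0334) and without control replicate 2 (-0.17, adjusted p = 0.0372) or CoCl2 replicate 3 (-0.17, adjusted p = 0.0334). By library size alone CLK2 was at -0.63 with CoCl2 (adjusted p = 1.62e-11), where the median of all genes was -0.55. It fell with OD by 1.21-fold (log2 fold change -0.28, SE 0.066, adjusted p = 0.000186).

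The kinases therefore changed relative to each other within each library, which no scaling between libraries can alter. The count ratio of CLK3 to CLK2 was 1.56, 1.47 and 1.40 in control, 9.73, 9.96 and 8.70 with CoCl2 and 2.77, 2.63 and 2.63 with OD. The ratio of CLK1 to CLK4 was 2.83, 2.94 and 3.01 in control, 6.17, 5.46 and 5.48 with CoCl2 and 3.06, 3.42 and 3.56 with OD. In both ratios the groups did not overlap, and the exact permutation test of the log2 ratio gave p = 0.1 (two-sided) for each pair of groups, the smallest p that 3 libraries against 3 allow. As a share of all counts in a library, the 4 kinases together took 0.0183 ± 0.00021% in control, 0.0438 ± 0.0013% with CoCl2 and 0.0235 ± 0.0012% with OD (SD, n = 3).

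**Figure D3:**
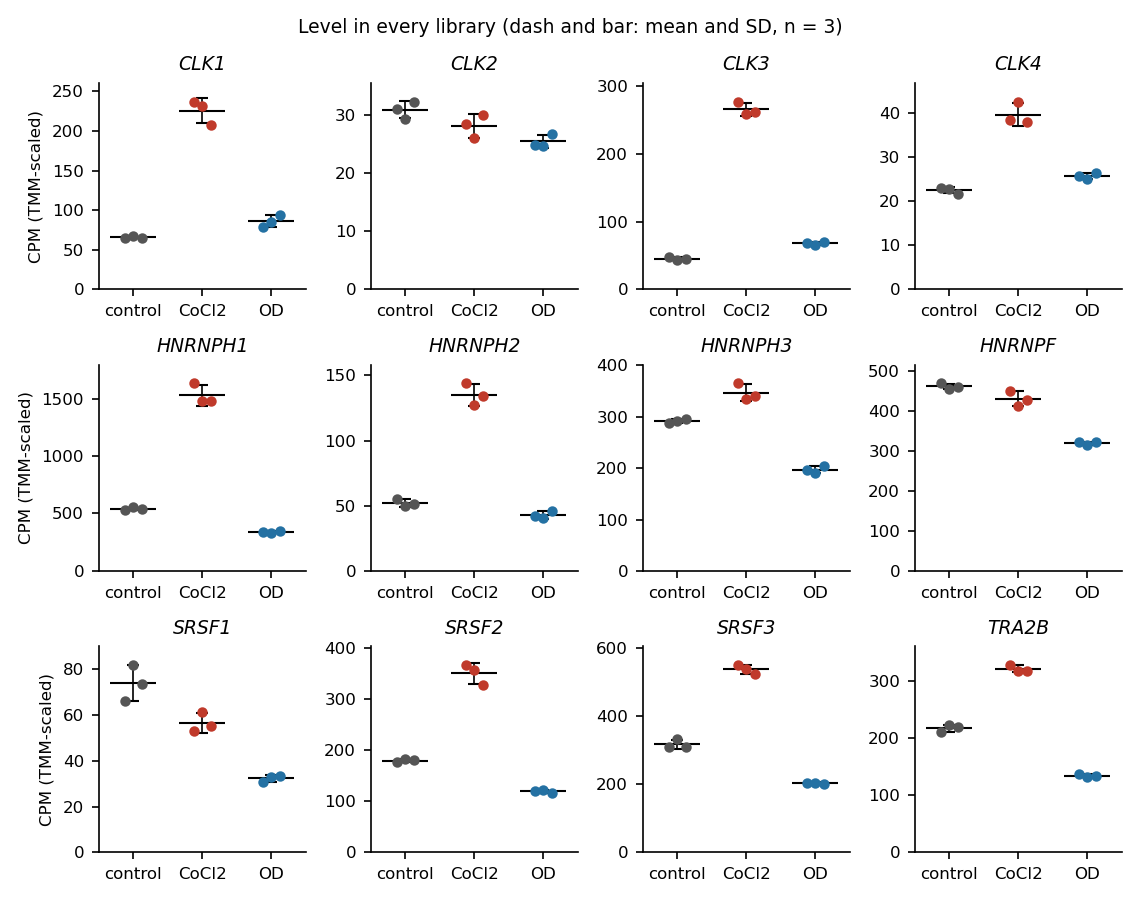
Level of 12 members in each library, in TMM-scaled CPM on axes that start at 0, for control (grey), CoCl2 (red) and OD (blue). Points are libraries, and the dash and bar give the mean and SD of 3. In CLK1, CLK3 and CLK4 the order is control, OD, CoCl2, whereas in HNRNPH1, HNRNPH2, SRSF2, SRSF3 and TRA2B the OD libraries lie below control and the CoCl2 libraries above.

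TRA2A and TRA2B, SR-like activators that bind purine-rich exonic enhancers, rose with CoCl2 and fell with OD. TRA2B was at 211, 223 and 219 CPM in the control libraries, 329, 318 and 318 CPM in the CoCl2 libraries and 137, 132 and 133 CPM in the OD libraries. Its log2 fold change was 0.56 (SE 0.040, adjusted p = 4.36e-20) with CoCl2 and -0.70 (SE 0.041, adjusted p = 3.41e-23) with OD. TRA2A was at 79.2, 82.2 and 81.2 CPM in control, 121, 118 and 113 CPM with CoCl2 and 61.03, 62.2 and 67.3 CPM with OD. For both genes the 3 groups did not overlap. The changes of TRA2A were 0.53 (SE 0.049, adjusted p = 1.73e-15) and -0.35 (SE 0.050, adjusted p = 9.01e-09). By library size alone TRA2B with CoCl2 was 0.057 above control on the log2 scale. TRA2B over TRA2A in counts was 2.66, 2.71 and 2.6996 in control, 2.71, 2.704 and 2.82 with CoCl2 and 2.25, 2.12 and 1.98 with OD, so it overlapped between CoCl2 and control and was lower in every OD library.

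Among the 12 SR proteins, 8 rose with CoCl2 (66.7%, against 40.4% of all genes) and 3 fell (25%, against 42.8%). SRSF8 did not pass the test (0.067, adjusted p = 0.246), though it did with RLE factors (0.12, adjusted p = 0.0396). By library size alone SRSF8 passed as lower (-0.44, adjusted p = 8.09e-10). With OD 11 fell (91.7%, against 33.3% of all genes) and SRSF12 did not pass. None was called with CoCl2, against 19.9% of all genes higher and 23.4% lower. SRSF1 alone was called with OD, as lower (8.33%, against 4.16% of all genes). SRSF2 (SC35), a marker of nuclear speckles, was at 176, 182 and 180.3 CPM in the control libraries, 367, 357 and 328 CPM in the CoCl2 libraries and 121, 122 and 116 CPM in the OD libraries. The CoCl2 libraries were all far above control and the OD libraries all below. It rose 1.95-fold with CoCl2 (log2 fold change 0.96, SE 0.042, adjusted p = 1.58e-30) and fell 1.50-fold with OD (log2 fold change -0.59, SE 0.044, adjusted p = 1.06e-18). Without CoCl2 replicate 3 its log2 fold change with CoCl2 was 1.01, past the limit of a call. Its exons share 27.7% of their length with other genes, mostly MFSD11 on the opposite strand, and the strand setting of the counting was not given in the sources used here.

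SRSF3, the smallest of the classical SR proteins, was at 309, 333 and 309 CPM in the control libraries, 551, 539 and 524 CPM in the CoCl2 libraries and 205, 205 and 202 CPM in the OD libraries. Its groups did not overlap, and its log2 fold changes were 0.76 (SE 0.040, adjusted p = 1.2e-26) with CoCl2 and -0.64 (SE 0.041, adjusted p = 9.03e-22) with OD. SRSF5 was at 259.8, 243 and 242 CPM in control, 402, 372 and 393 CPM with CoCl2 and 169, 161 and 175 CPM with OD, and its changes were 0.65 (SE 0.042, adjusted p = 2.44e-22) and -0.56 (SE 0.042, adjusted p = 2.27e-18). SRSF11, which carries an RS domain and interacts with the U2AF splice-site factor, showed the same order of the 3 groups. It was at 122, 125 and 126 CPM in control, 242, 229 and 229 CPM with CoCl2 and 95.05, 93.6 and 103 CPM with OD, with changes of 0.91 (SE 0.044, adjusted p = 2.18e-28) and -0.35 (SE 0.045, adjusted p = 4.39e-10). The other SR proteins that rose with CoCl2 were SRSF6, SRSF4, SRSF7 and SRSF10, with log2 fold changes of 0.87, 0.51, 0.31 and 0.15, where the values of SRSF7 and SRSF10 turned negative by library size alone and SRSF10 did not pass with no filter (0.089, adjusted p = 0.128). With OD, SRSF6 stood apart from these with the smallest fall, -0.10 (SE 0.042, adjusted p = 0.0277), and its libraries did not overlap control by a narrow margin (177, 184 and 187 CPM in control, 167, 167 and 177 CPM with OD). That fall did not pass the test with DESeq2 (adjusted p = 0.0607), with the 6 libraries compared alone (adjusted p = 0.0530), under either other filter on low counts (adjusted p = 0.0749 and 0.0923) or when control replicate 2 or 3 or OD replicate 1 or 2 was left out (adjusted p = 0.0618 to 0.116).

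SRSF1, the founding SR protein, which acts in constitutive and alternative splicing, went down with either agent. It was at 66.2, 82.02 and 73.5 CPM in the control libraries, 53.1, 61.4 and 55.2 CPM in the CoCl2 libraries and 30.7, 32.9 and 33.4 CPM in the OD libraries. All CoCl2 libraries lay below control and all OD libraries below CoCl2. SRSF1 fell 1.31-fold with CoCl2 (log2 fold change -0.39, SE 0.061, adjusted p = 1.03e-07) and 2.29-fold with OD (log2 fold change -1.20, SE 0.063, adjusted p = 1.57e-22), the largest fall of any member with OD. Of its exonic length, 32.7% is shared on the same strand with another annotated gene, so its counts may include or lack reads of that gene. SRSF9, its nearest relative, fell too, with -0.41 (SE 0.051, adjusted p = 1.09e-10) for CoCl2 and -0.27 (SE 0.049, adjusted p = 1.98e-06) for OD, and 46.7% of its exonic length overlaps other genes on either strand. The count ratio of SRSF1 to SRSF9 was 0.672, 0.893 and 0.794 in control, 0.705, 0.894 and 0.795 with CoCl2 and 0.378, 0.436 and 0.432 with OD. It overlapped between CoCl2 and control and was lower in every OD library (exact permutation p = 0.1, the smallest possible). SRSF12 had 8 to 29 counts per library, and its fall with CoCl2, -0.89 (SE 0.35, adjusted p = 0.0155), came with libraries that overlapped control, and it passed -1 without control replicate 1 (-1.22) and without CoCl2 replicate 2 (-1.05). The fall of SRSF12 did not pass with DESeq2 (adjusted p = 0.124) or without control replicate 3, CoCl2 replicate 1 or CoCl2 replicate 3 (adjusted p = 0.174, 0.0654 and 0.0531).

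Together the SR proteins took 0.192 ± 0.0026% of all counts in control, 0.202 ± 0.0031% with CoCl2 and 0.139 ± 0.0018% with OD (SD, n = 3). The TRA2 proteins took 0.0332 ± 0.00098%, 0.0343 ± 0.00036% and 0.0226 ± 0.00036%. On both measures the OD libraries were below all others. For CoCl2 the share of SR proteins was 0.199 to 0.204% per library, above the 0.190 to 0.195% of control.

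The hnRNPs changed in both directions with CoCl2, also within subgroups. Of the 21 tested, 10 rose (47.6%, against 40.4% of all genes), 8 fell (38.1%, against 42.8%) and 3 did not pass the test, and with OD 19 fell (90.5%, against 33.3%) and 0 rose. The HNRNPH and HNRNPF subgroup binds runs of G near splice sites through quasi-RNA recognition motifs. HNRNPH1 was at 531, 553 and 535 CPM in the control libraries, 1633, 1479 and 1476 CPM in the CoCl2 libraries and 338, 329.6 and 347 CPM in the OD libraries. It rose 2.84-fold with CoCl2 (log2 fold change 1.50, SE 0.041, adjusted p = 9.23e-42) and fell 1.59-fold with OD (log2 fold change -0.67, SE 0.041, adjusted p = 1.1e-22). Its X-linked paralog HNRNPH2 was at 55.3, 49.9 and 51.2 CPM in the control libraries, 144, 127 and 134 CPM in the CoCl2 libraries and 41.96, 40.3 and 46.1 CPM in the OD libraries. The CoCl2 libraries of both genes lay far above all others, with a log2 fold change of 1.37 (SE 0.054, adjusted p = 3.2e-33) for HNRNPH2, and the OD libraries below control, with -0.29 (SE 0.058, adjusted p = 1.62e-05). HNRNPH1 and HNRNPH2 are close in sequence, and how reads that fit several genes were counted was not given in the sources used here, so their separate levels are uncertain. Of the exonic length of HNRNPH2, 15.8% is also shared on the same strand with a read-through gene.

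The other members of that subgroup moved less. HNRNPH3 had a log2 fold change of 0.25 (SE 0.041, adjusted p = 1.3e-07) with CoCl2, which turned to -0.26 by library size alone, and of -0.57 (SE 0.041, adjusted p = 3.49e-19) with OD. HNRNPF was lower with CoCl2 by a small amount, -0.10 (SE 0.039, adjusted p = 0.0163), which did not pass with RLE factors (-0.050, adjusted p = 0.235) or without CoCl2 replicate 2 (adjusted p = 0.141), and lower with OD, -0.53 (SE 0.040, adjusted p = 7.71e-19). By library size alone HNRNPF was at -0.61 with CoCl2 (adjusted p = 2.44e-20), where the median of all genes was -0.55. Within libraries, the count ratio of HNRNPH1 to HNRNPF was 1.13, 1.21 and 1.16 in control, 3.63, 3.59 and 3.46 with CoCl2 and 1.05, 1.05 and 1.08 with OD. The ratio of HNRNPH1 to HNRNPH3 was 1.85, 1.90 and 1.81 in control, 4.47, 4.42 and 4.34 with CoCl2 and 1.72, 1.74 and 1.70 with OD. Both ratios were above every other library in the CoCl2 libraries and slightly below every control library in the OD libraries. The ratio of HNRNPH1 to HNRNPH2 was 9.60, 11.1 and 10.4 in control, 11.3, 11.6 and 11.03 with CoCl2 and 8.05, 8.17 and 7.53 with OD, and it overlapped between CoCl2 and control.

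**Figure D4:**
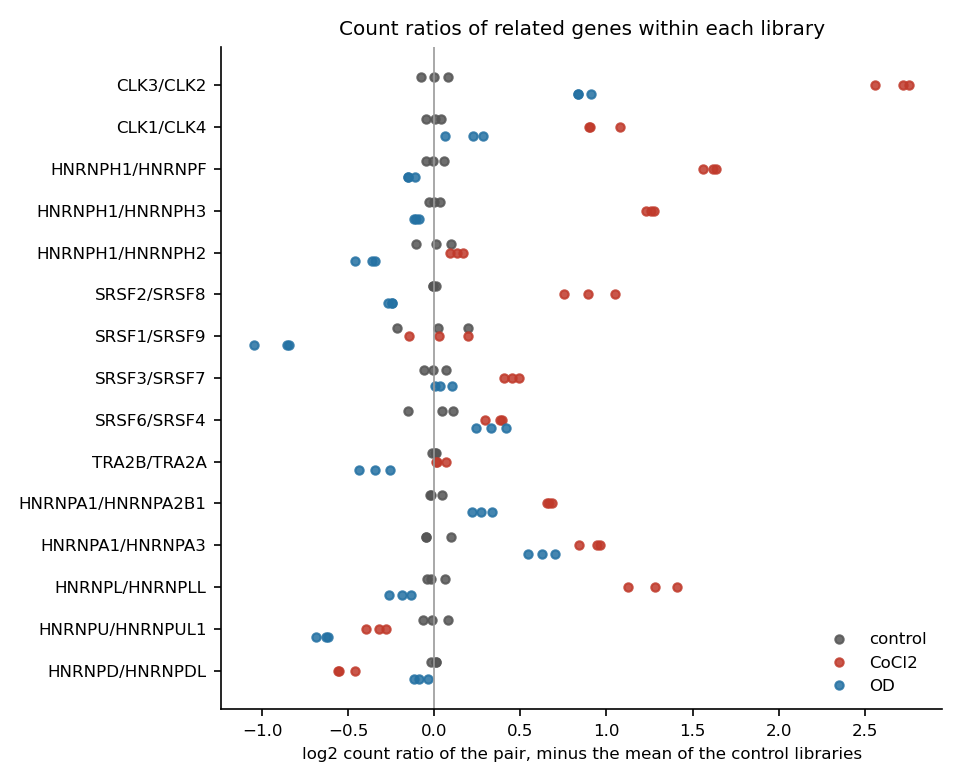
Log2 count ratios of 15 pairs of related members in each library, minus the mean of the control libraries, for control (grey), CoCl2 (red) and OD (blue). The ratios need no scaling between libraries. CLK3 to CLK2, HNRNPH1 to HNRNPF, HNRNPH1 to HNRNPH3 and HNRNPL to HNRNPLL stand farthest from control with CoCl2, and SRSF1 to SRSF9 and HNRNPU to HNRNPUL1 are lowest with OD.

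The A/B subgroup, which forms the core of the hnRNP particle, split with CoCl2. HNRNPA1, a repressor of exon inclusion, was higher with CoCl2 by 0.41 (SE 0.040, adjusted p = 3.01e-14), a value of -0.10 by library size alone, while HNRNPA2B1 and HNRNPA3 fell by 1.20-fold and 1.43-fold. With OD all 3 fell. HNRNPA3 was at 351, 359.9 and 352 CPM in the control libraries, 249, 251 and 246 CPM in the CoCl2 libraries and 163, 153 and 177 CPM in the OD libraries. Its groups did not overlap, and its log2 fold changes were -0.51 (SE 0.042, adjusted p = 1.81e-17) with CoCl2 and -1.11 (SE 0.043, adjusted p = 1.21e-32) with OD. Of its exonic length 54.8% overlaps other genes on either strand, mostly NFE2L2 on the opposite strand. HNRNPA2B1 fell with OD by 1.69-fold and HNRNPA1 by 1.40-fold. The count ratio of HNRNPA1 to HNRNPA2B1 was 0.507, 0.486 and 0.483 in control, 0.790, 0.775 and 0.781 with CoCl2 and 0.594, 0.620 and 0.573 with OD, so HNRNPA1 gained on HNRNPA2B1 in every treated library.

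HNRNPAB, which binds single-stranded nucleic acid and takes part in RNA editing complexes, was at 449.9, 453 and 439.9 CPM in control, 656, 584 and 563 CPM with CoCl2 and 281, 266 and 275 CPM with OD. Its log2 fold changes were 0.43 (SE 0.042, adjusted p = 4.96e-14) with CoCl2, or -0.081 by library size alone, and -0.71 (SE 0.043, adjusted p = 1.63e-22) with OD. HNRNPA0 was at 223, 216 and 210.3 CPM in control, 229, 228 and 222 CPM with CoCl2 and 139, 145 and 142 CPM with OD, and HNRNPA0 was 1 of the 3 members with the smallest change in size with CoCl2. Its interval there was -0.016 to 0.15 (adjusted p = 0.14), though it passed with RLE factors (0.12, adjusted p = 0.00888), whereas with OD it fell by 1.52-fold. By library size alone HNRNPA0 passed as lower with CoCl2 (-0.44, adjusted p = 4.95e-14). HNRNPA1L2 is a retrocopy of HNRNPA1 whose 1 exon is wholly shared with another annotated gene. It had 16 to 53 counts per library, so its fall with CoCl2, -0.80 (SE 0.24, adjusted p = 0.00234), may include reads of HNRNPA1 or the overlapping gene, and it did not pass with DESeq2 over 6 libraries (-0.80, adjusted p = 0.0578) or without CoCl2 replicate 3 (-0.54, adjusted p = 0.0586).

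HNRNPU, a nuclear scaffold protein that binds RNA and chromatin, was at 881, 916 and 891 CPM in the control libraries, 759, 705 and 701 CPM in the CoCl2 libraries and 447, 426 and 456 CPM in the OD libraries. The CoCl2 libraries lay between those of control and OD. HNRNPU fell with CoCl2, -0.31 (SE 0.040, adjusted p = 1.44e-10), and with OD, -1.02 (SE 0.040, adjusted p = 4.04e-32), a call that was just missed without OD replicate 2 (-0.99). Its relative HNRNPUL1 was at 312, 303 and 326 CPM in control, 323, 308 and 323 CPM with CoCl2 and 242, 239.9 and 244 CPM with OD. With TMM factors HNRNPUL1 had the smallest change of all members with CoCl2, with an interval of -0.058 to 0.099 (adjusted p = 0.641). By library size alone it passed as lower with CoCl2 (-0.49, adjusted p = 4.79e-16). With OD it fell by 1.30-fold. HNRNPUL2 did not pass the test with OD (log2 fold change -0.068, interval -0.18 to 0.041) and 44.3% of its exonic length is shared with a read-through gene. HNRNPU over HNRNPUL1 in counts was 2.83, 3.02 and 2.73 in control, 2.35, 2.29 and 2.17 with CoCl2 and 1.85, 1.77 and 1.87 with OD. It was lower in both treatments than in any control library, and lowest with OD.

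HNRNPL and HNRNPLL, paralogs that bind CA-rich RNA, went apart with CoCl2. HNRNPL was at 179, 181 and 181 CPM in control, 264, 238 and 236 CPM with CoCl2 and 122, 121 and 124 CPM with OD. It was higher with CoCl2, 0.45 (SE 0.043, adjusted p = 8.13e-15), a value of -0.059 by library size alone, and fell with OD, -0.56 (SE 0.044, adjusted p = 7.61e-18). HNRNPLL, in contrast, fell with CoCl2, -0.83 (SE 0.067, adjusted p = 8.48e-18), and with OD, -0.36 (SE 0.062, adjusted p = 5.32e-07). HNRNPLL means were 44.9 ± 1.59 CPM in control, 25.4 ± 2.87 CPM with CoCl2 and 34.8 ± 1.18 CPM with OD (SD, n = 3). The count ratio of HNRNPL to HNRNPLL was 3.97, 3.91 and 4.21 in control, 9.79, 8.78 and 10.7 with CoCl2 and 3.53, 3.36 and 3.67 with OD. Every CoCl2 library lay above every other, and every OD library below control.

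HNRNPD (AUF1), which binds AU-rich elements and controls mRNA decay, fell with CoCl2 by 1.39-fold and with OD by 1.51-fold. By library size alone its log2 fold changes were -0.98 with CoCl2 and -0.55 with OD, so the order of the agents reversed. Its relative HNRNPDL was at 356, 358 and 368 CPM in control, 390.2, 366 and 367 CPM with CoCl2 and 257, 236 and 269 CPM with OD. HNRNPDL did not pass the test with CoCl2, where the interval of its log2 fold change was -0.029 to 0.13 (adjusted p = 0.234), though it did with RLE factors (0.10, adjusted p = 0.0204). By library size alone HNRNPDL passed as lower with CoCl2 (-0.45, adjusted p = 2.34e-14). HNRNPD over HNRNPDL in counts was 0.958, 0.942 and 0.959 in control, 0.648, 0.648 and 0.691 with CoCl2 and 0.879, 0.929 and 0.897 with OD, lowest in the CoCl2 libraries.

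HNRNPM, a splicing factor of the nuclear matrix, was at 409, 391 and 392 CPM in control, 549.5, 518 and 544 CPM with CoCl2 and 246, 241 and 244 CPM with OD. Its log2 fold changes were 0.44 (SE 0.039, adjusted p = 6.95e-16) with CoCl2, or -0.070 by library size alone, and -0.71 (SE 0.040, adjusted p = 2.16e-24) with OD. HNRNPC, which binds uridine tracts, and HNRNPK, which binds C-rich RNA through KH domains, rose little with CoCl2, by 0.28 and 0.11 on the log2 scale with TMM factors, and lay below control by library size alone. HNRNPK did not pass with no filter (0.048, adjusted p = 0.403). With OD they fell by 1.62-fold and 1.47-fold. HNRNPR fell with CoCl2, -0.23 (SE 0.042, adjusted p = 1.1e-06), and more with OD, -0.88 (SE 0.042, adjusted p = 1.17e-27).

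Summed over members, hnRNPs took 0.997 ± 0.0064% of all counts in control, 0.796 ± 0.016% with CoCl2 and 0.644 ± 0.021% with OD (SD, n = 3). In TMM-scaled CPM the same sums were 8963 ± 91.4, 10169 ± 369.6 and 5631 ± 186.5. For CoCl2 the hnRNP sum was therefore below control as a share of counts and above control in TMM-scaled CPM, while for OD it was below control on both scales.

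The agents were also compared directly, each at its own dose. Of the 39 tested members, 35 were higher with CoCl2 than with OD at an adjusted p under 0.05, against 40.2% of all genes, and 3 were lower, against 43.2%. By library size alone 24 were higher and 10 lower at that limit. Under either scaling 35 of the 39 lay above the median of all genes. The median log2 difference, CoCl2 over OD, was 0.80 over the members and -0.054 over all genes, or 0.26 and -0.60 by library size alone. Beyond a log2 difference of 1, 12 members were called higher, against 17.5% of all genes, and 0 lower, against 23.8%. Libraries of the agents did not overlap for 37 of 39 members, against 83.8% of all genes. The 12 were HNRNPH1 (2.18), CLK3 (1.97), HNRNPH2 (1.66), SRSF2 (1.55), SRSF3 (1.40), CLK1 (1.39), SRSF11 (1.26), TRA2B (1.26), SRSF5 (1.21), HNRNPM (1.14), HNRNPAB (1.13) and HNRNPL (1.01). By library size alone 4 of them, CLK3, HNRNPH1, HNRNPH2 and SRSF2, remained beyond 1. HNRNPL lost its call when control replicate 1 (0.99), CoCl2 replicate 1 (0.96), OD replicate 1 (0.997) or OD replicate 2 (0.99) was left out. With TMM factors, the 3 members that were lower with CoCl2 than with OD were HNRNPLL, -0.47 (SE 0.068, adjusted p = 7.93e-09), HNRNPA1L2, -0.69 (SE 0.24, adjusted p = 0.00821), and SRSF9, -0.13 (SE 0.051, adjusted p = 0.0151). HNRNPA1L2 did not pass with DESeq2 (adjusted p = 0.0903 over 9 libraries) or without CoCl2 replicate 3 (adjusted p = 0.134) or OD replicate 1 (adjusted p = 0.0809), and SRSF9 not with DESeq2 over 9 libraries (adjusted p = 0.0582), RLE factors (adjusted p = 0.101) or without CoCl2 replicate 2 or 3 or OD replicate 1 (adjusted p = 0.0769, 0.0684 and 0.0800). CLK2 and HNRNPD, higher with CoCl2 than with OD by 0.16 and 0.12, were below OD by library size alone and missed the test in several other settings. The comparisons of CoCl2 and of OD with control share the 3 control libraries and are not independent of each other.

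Other genes of the splicing pathway, from lists chosen by function, gave the setting of these values. The shares of all genes to set beside their counts are for a call beyond a log2 fold change of 1. With TMM factors they were 19.9% higher and 23.4% lower with CoCl2, and 9.09% and 4.16% with OD, as given above. By library size alone they were 11.5% higher and 36.6% lower with CoCl2. Medians are with TMM factors, and dividing by library size alone moved each CoCl2 median down along with that of all genes. Of 22 tested SR-related proteins, which carry RS domains but are not classical SR proteins, 8 (36.4%) were called higher with CoCl2 and 0 lower, with a median of 0.90, or 0.39 with 4 higher and 0 lower by library size alone. The largest changes were in ZRSR2, a factor of the minor spliceosome (1.56, SE 0.086, adjusted p = 1.26e-25), and in SON, a scaffold of nuclear speckles (1.55, SE 0.040, adjusted p = 6.94e-43). With OD 1 was called higher, SRRM3 (1.16, SE 0.37, adjusted p = 0.00438), which lay under 1 CPM in every group mean, and the median was -0.20. Of a list of 10 genes, made up of kinases and transportins of splicing factors and of CLASRP, 3 (30%) were called higher and 3 (30%) lower with CoCl2, with a median of 0.14, or -0.37 by library size alone, and 0 were called with OD, with a median of -0.098. DYRK1A, a kinase of speckle proteins, and CLASRP, a CLK4-associated SR-like protein, were the highest with CoCl2, at 1.78 and 1.43. SRPK3 (-1.20, SE 0.44, adjusted p = 0.0111) and DYRK1B (-1.10, SE 0.25, adjusted p = 6.18e-05) were the lowest. Both had low counts: SRPK3 lay under 1 CPM in every group mean, and DYRK1B at 2.15 CPM in control and 1.02 CPM with CoCl2.

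Of 44 tested other regulators of alternative splicing, 10 (22.7%) were called higher, close to the share of all genes, and 1 (2.27%) lower with CoCl2 (median 0.40). By library size alone 2 were called higher and 9 lower, with a median of -0.11. With OD, 2 were called higher and 0 lower (median -0.20). MBNL2, a muscleblind-like protein, was called with both agents, at 2.47 (SE 0.065, adjusted p = 1.39e-42) with CoCl2 and 1.13 (SE 0.069, adjusted p = 1.4e-22) with OD, whereas its relative MBNL3 was lower with CoCl2, at -1.30 (SE 0.063, adjusted p = 9.05e-18). EWSR1 was higher with CoCl2 at 1.79, and RBM20 with OD at 1.11. Of 79 core spliceosome genes, CoCl2 gave 21 calls above control (26.6%) and 6 below (7.59%), with a median of 0.36, and by library size alone 4 above and 13 below, with a median of -0.14. OD gave 0 calls in either direction (median -0.33), where 60 passed the test below control, against 33.3% of all genes, and 5 above, against 32.3%. SLU7 (2.11), which acts in 3' splice site choice, and SYF2 (1.93) were highest with CoCl2 and LSM6 (-2.73) and LSM5 (-1.39), parts of the ring that binds U6 RNA, lowest. Of 10 NMD factors, 1 was called higher with CoCl2, SMG1 (1.93, SE 0.047, adjusted p = 8.6e-38), whose genomic copies make its counts uncertain, with a median of 0.56 with CoCl2, or 0.058 by library size alone, and 0.086 with OD. None of these medians was tested against the members.

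**Figure D5:**
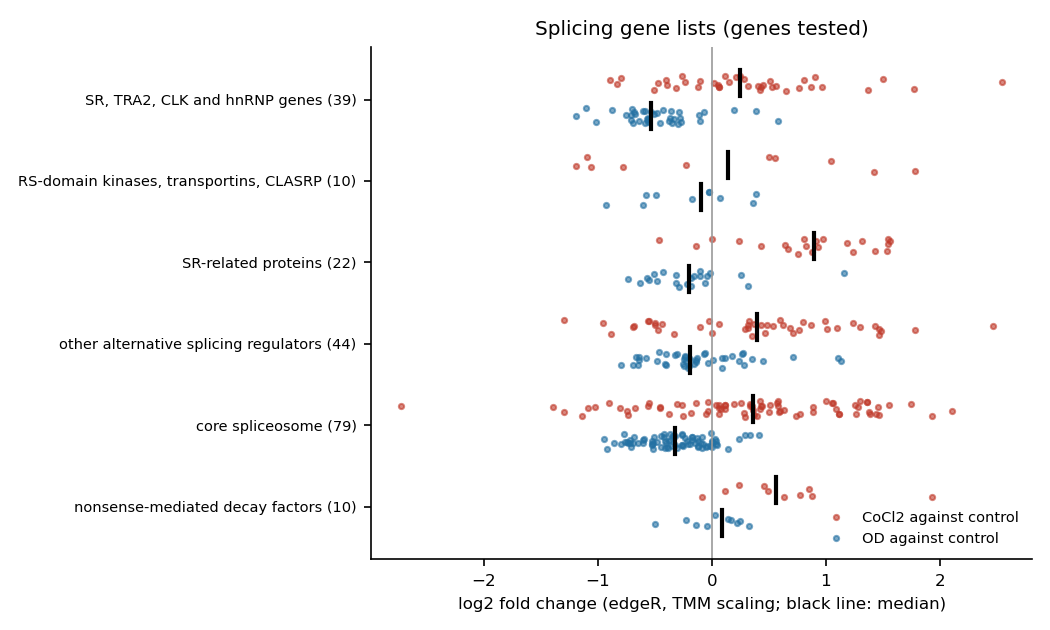
Log2 fold changes of the 39 tested members and of 5 lists of other splicing genes, with CoCl2 (red) and OD (blue) against control, by edgeR with TMM scaling. Points are genes, spread vertically for visibility, and black lines are medians, which run from 0.14 to 0.90 with CoCl2 and from -0.53 to 0.086 with OD.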

How the data were processed

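Libraries were made from poly(A) RNA with a stranded kit and read as single-end sequences of undifferentiated Caco-2 cells, with 3 control, 3 CoCl2 and 3 OD libraries grouped by the treatment label. Per the labels, the authors checked reads with FastQC 0.11.9, trimmed them with cutadapt 2.10 and aligned them to GRCh38.p13 with STAR 2.7.5b; the study's methods name GENCODE 34 genes. The deposited values are the authors' raw read counts per gene symbol, whole numbers without normalization. The counting tool, its strand setting and its treatment of reads that fit several genes are not given in the sources used here, so overlapping genes and near-identical copies are uncertain. All 9 columns matched a sample by name, and 0 were left unused.

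From these counts, edgeR 4.0.16 (R 4.3.3) computed TMM factors, filtered low counts and fitted a robust quasi-likelihood model over all 9 libraries with 1 mean per condition, with Benjamini-Hochberg adjustment over 15944 genes. A gene was called past an adjusted p of 0.05 with a log2 fold change beyond 1 in either direction, as in the study. CPM were computed from library totals times the TMM factors; levels per kilobase used the canonical transcript length of GENCODE 44, which also gave the annotations. Count ratios of related genes had an exact two-sided permutation test. At these depths, the standard errors of the members ran from about 0.04 on the log2 scale to 0.35 for SRSF12, and counts carry no molecular identifiers.

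The members and the lists of other genes were chosen with earlier results of these data known. Every member is accounted for; those called in any comparison, CLK1 to CLK4, TRA2A, TRA2B and the 3 with the smallest change with CoCl2 are given in full, and of each list the 2 highest and 2 lowest called genes. Replicates of a group differed beyond sampling noise in every pair (chi-square per degree of freedom 1.80 to 3.16). Same-numbered replicates did not deviate together across genes (correlations of -0.018 to 0.067), so they were not paired. Alternatives were DESeq2 1.42.0 over 9 or 6 libraries, edgeR over the 6 libraries compared, RLE factors, library size alone, no filter, at least 10 counts in every library, a replicate block and leaving out each library. The fits were tested on simulated data in which few genes changed, so that test could not show which scaling between libraries is right. For 1 marker gene, no value is reported here.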

Additional observations from a re-analysis of the deposited data

How the results depend on the processing

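With OD against control, all alternatives kept the median of the members below control, with 2 to 3 members called lower and 0 higher. DESeq2 over 9 or 6 libraries also gave 0 called members wherever edgeR gave 0. With CoCl2 against control, the median of 0.25 became 0.30 with RLE factors, 0.18 with no filter and -0.26 by library size alone. Library size alone also gave 2 members called higher, against 11.5% of all genes, and 4 called lower (HNRNPA1L2, HNRNPA3, HNRNPLL and SRSF12), against 36.6%. Leaving out 1 library at a time gave 0 to 1 called lower, SRSF12 at -1.22 without control replicate 1 and -1.05 without CoCl2 replicate 2. With CoCl2 against OD, the median of 0.80 became 0.85 with RLE factors, 0.26 by library size alone, 0.74 with no filter and 0.76 with at least 10 counts in every library, and 0.75 to 0.82 when 1 library was left out. By library size alone 4 members were called higher, against 8.47% of all genes, and 3 lower, against 37.8%. The share of higher genes among all called genes was then 18.3%, against 42.4% with TMM factors.

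Members near the limits changed their calls. With CoCl2, HNRNPH1 was at 0.997 and HNRNPH2 at 0.868 by library size alone, and SRSF2 passed 1 with RLE factors (1.02) and without CoCl2 replicate 3 (1.01). With OD, HNRNPU was at -0.98 by library size alone, and at -0.99 with at least 10 counts in every library and without OD replicate 2. HNRNPL, called higher with CoCl2 than with OD at 1.01, was at 0.99 without control replicate 1, 0.96 without CoCl2 replicate 1, 0.99 without OD replicate 2 and 0.997 without OD replicate 1. In that comparison SRSF7 was at 1.02 without CoCl2 replicate 2 and without OD replicate 1, and SRSF6 at 1.00 without CoCl2 replicate 3. In the same comparison CLK2 did not pass the test without CoCl2 replicate 1 (adjusted p = 0.0576), CoCl2 replicate 3 (adjusted p = 0.201), OD replicate 1 (adjusted p = 0.111) or OD replicate 2 (adjusted p = 0.128), nor HNRNPD without OD replicate 2 (adjusted p = 0.115).

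Values that changed sign with CoCl2 by library size alone were SRSF7 (-0.19), SRSF8 (-0.44), SRSF10 (-0.35), HNRNPA0 (-0.44), HNRNPA1 (-0.10), HNRNPAB (-0.081), HNRNPC (-0.23), HNRNPDL (-0.45), HNRNPH3 (-0.26), HNRNPK (-0.39), HNRNPL (-0.059), HNRNPM (-0.070), HNRNPUL1 (-0.49) and HNRNPUL2 (-0.29). With no filter they were HNRNPA0 (-0.0012), HNRNPDL (-0.013) and HNRNPUL1 (-0.045), and HNRNPUL1 was also at -0.0081 with at least 10 counts in every library and -0.010 without control replicate 2, its values running to 0.048 when other libraries were left out. With OD they were SRSF12 (0.028) and HNRNPA1L2 (0.0012) without control replicate 3, and HNRNPA1L2 (0.0016) without OD replicate 3, against lowest values of -0.61 for SRSF12 and -0.30 for HNRNPA1L2 without other libraries. With CoCl2 against OD by library size alone they were CLK2 (-0.39), SRSF8 (-0.15), HNRNPA2B1 (-0.052), HNRNPD (-0.43), HNRNPF (-0.11), HNRNPUL1 (-0.15) and HNRNPUL2 (-0.27). Library size alone shifts all genes of a comparison by the same amount, and the cause of the other changes was not tested.

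The replicate numbers did not pair the libraries. With the replicate block the medians were 0.249, -0.533 and 0.806 for CoCl2 and for OD against control and for CoCl2 over OD, with 4, 0 and 12 members called higher and 0, 3 and 0 lower. Counts as low as those of SRSF12 and HNRNPA1L2 limit what can be said of these genes, and no setting can show which transcript forms were counted.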
